A study of Mus musculus with 3 samples.

Results

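Malat1, Neat1, Meg3, Rian, Gas5, Snhg1 and Kcnq1ot1 are long noncoding RNA (lncRNA) genes, named here as a list of 7 among the 48795 gene identifiers of the count tables. They were chosen by kind, as nuclear-retained, imprinted and snoRNA-hosting lncRNAs, and selected on their counts in these libraries, which were already known, so those counts are given as a description. Of the 7, 5 were counted in WT 1, 0 in WT 2 and 2 for Mat KO, with 206, 0 and 1288 counts in sum. The libraries hold polysomal RNA of mouse bone marrow cells, with 2 wild-type (WT) libraries and 1 library of the genotype Mat KO. Values given as 3 numbers follow the order WT 1, WT 2, Mat KO. The labels give no age, strain or deleted segment, and do not say whether the WT libraries came from separate mice. All 3 libraries came from cells held in cycloheximide, which stalls ribosomes on RNA, with polysomes separated on a sucrose gradient. The series title names the imprinted Dlk1-Gtl2 locus, its small nucleolar RNAs (snoRNAs) and translation. Meg3 (also called Gtl2) and Rian are genes of that locus.

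LncRNAs are transcribed by RNA polymerase II but are not known to act through a protein product. Malat1 and Neat1 are retained in the nucleus, where Malat1 sits in nuclear speckles and Neat1 builds paraspeckles. Meg3, Rian and Kcnq1ot1 are imprinted: Meg3 and Rian are expressed from the maternal chromosome and Kcnq1ot1 from the paternal one. Gas5 and Snhg1 carry snoRNAs in their introns, and their spliced RNAs reach the cytoplasm, where ribosomes engage them and nonsense-mediated decay removes them. In marrow, Meg3 is best known for its expression in long-term hematopoietic stem cells.

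The 3' ends of Malat1 and of the 20771-base Neat1 transcript are shown because they set these RNAs apart from polyadenylated RNAs. Neat1 has 4 annotated transcripts, and its counts are not split among them. Both RNAs are cut by RNase P, and a T-rich stretch and a genome-encoded A-rich stretch fold into a triple helix that protects the end. The labels name neither poly(A) selection nor rRNA depletion. The stretches below are from the GENCODE M21 transcripts (GRCm38), 5' to 3', with the T-rich or A-rich letters in capitals.
Malat1 T-rich: aaaggTTTTTCTTTTcctgagaaaacaacc
Neat1 T-rich: aggtgTTTCTTTTcctgaccgcggctcatg
Malat1 A-rich: ttccctagctttAAAAAAAAAAAAGCAAAA
Neat1 A-rich: gagaacgaacgtgagcaggAAAAAGCAAAA
The Malat1 stretches are chr19:5796043-5796072 and chr19:5795982-5796011 on the minus strand, and the A-rich one lies 292 bases before the end of the annotated transcript. Those of Neat1 are chr19:5824773-5824802 and chr19:5824708-5824737, also on the minus strand, and the A-rich one ends the annotated transcript. The letters searched were the last 11 bases of Neat1, AAAAAGCAAAA, and TTTCTTTT, on the transcript strand only. Of 122312 annotated transcripts of at least 400 bases, the last 400 bases held the first in 0.117%, the other in 4.49% and both in 0.00736%, which is 9 transcripts.

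The starts of the RefSeq transcripts of Gas5 and Snhg1 (GRCm38.p6) are shown because genes of the translation machinery, and many snoRNA hosts with them, are known to begin with a run of C and T. Capitals mark the longest run of C or T in the first 25 bases. For Gas5 the later of the RefSeq starts is shown.
Gas5: CTTTCggagctgtgcggcattctgagcagg
Snhg1: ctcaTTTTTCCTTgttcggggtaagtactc
The Gas5 bases are chr1:161035166-161035195 and the Snhg1 bases chr19:8723487-8723516, both on the plus strand. The run was 5 bases in Gas5 and 9 bases in Snhg1. Of the 32851 starts in the table, 39.0% had a run of at least 5 and 5.42% a run of at least 9 within these 25 bases. The run need not begin at the first base, and in Snhg1 it does not. Neither gene had a count in any library, as given below with its limits.

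Depth limits these genes differently in each library. Gene-assigned counts were 64547, 239429 and 125871, but most fell on Lars2, the rRNA gene CT010467.1 and 2 mitochondrial rRNA genes, mt-Rnr1 with mt-Rnr2. Outside these 4 features, 20903, 2301 and 14430 counts remained, and shares below are per 10000 of these, called other counts. A count of 0, taken as at most 3 counts, allows 1.44, 13.04 and 2.08 per 10000. The libraries also differed in what they held. All 5 erythroid markers and all 8 neutrophil markers were counted in WT 1, at 407 and 467 counts, and all 13 were at 0 elsewhere. Of the 5 plasma and B cell markers, 4, 0 and 1 were counted, with 96, 0 and 1 counts, the last on Igkc. The macrophage list had 218, 62 and 18 counts, all of them from Apoe outside WT 1. The 6 pancreas acinar markers had 1, 10 and 510 counts, the 5 liver markers 386, 26 and 0, and the 4 skeletal muscle markers 180, 0 and 0. Markers of marrow cells were thus counted in WT 1, and in the others only Apoe and, for Mat KO, 1 count of Igkc. The part of these differences in the lncRNA values was not tested. In tissue, fewer cells of a type and less RNA per cell cannot be told apart.

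Counts were also uneven in a way that bears on every small value. Among genes with more than 1 count, 68.8%, 74.3% and 84.4% had an even count. The most common count above 1 was 4, 2 and 6, and WT 1 had 641 genes with 4 counts against 148 with 3. In the Mat KO library the median of genes above 1 was 12, and 31 genes shared the exact value 18 found for Neat1. All member counts above 1 were even. Intervals below are 95% Wilson intervals, which cover counting error only and take each count as an independent molecule.

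**Figure D1:**
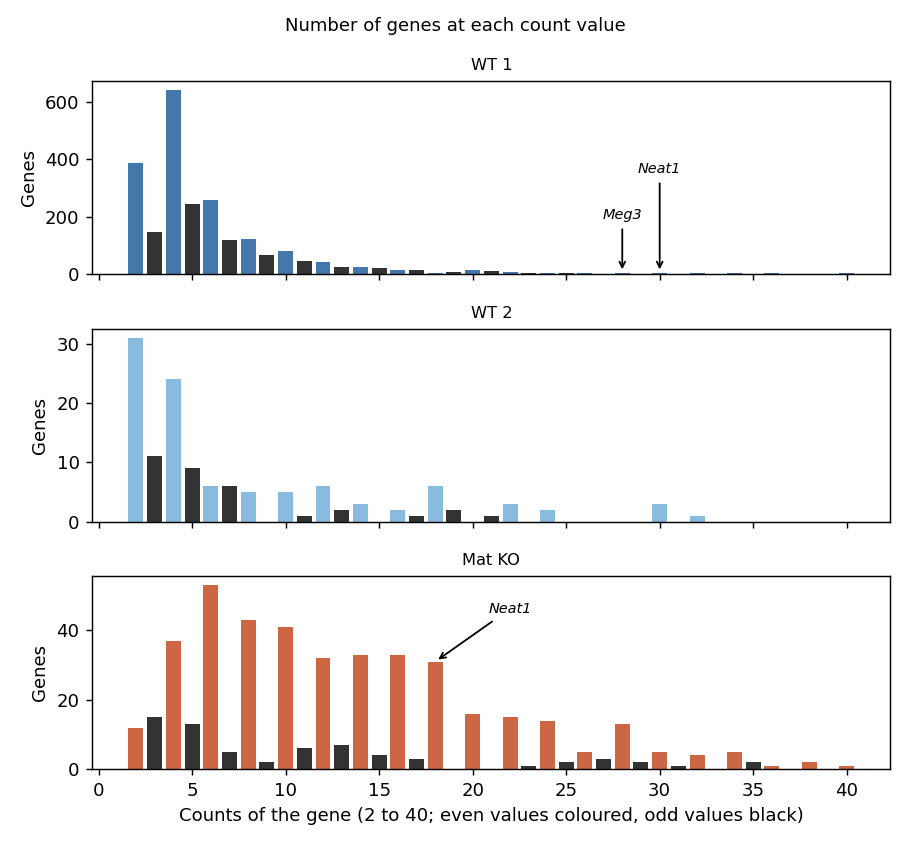
The x axis gives the counts of a gene from 2 to 40 and the y axis the number of genes with that value, in each of the 3 libraries, with even values coloured and odd values black. The share of genes on even values is highest in the Mat KO library, at 84.4%, where Neat1 lies at 18 among 31 genes with that count.

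Malat1 was the most counted lncRNA of WT 1, was not counted in WT 2, and came after only 1 gene outside the 4 dominant features of the Mat KO library. Malat1 (ENSMUSG00000092341, GRCm38 chromosome 19 from 5795690 to 5802672, minus strand, a single exon block of 6983 bases) had 146, 0 and 1270 counts. Its share was 69.8 per 10000 other counts (59.4 to 82.1) for WT 1 and 880.1 (835 to 927) for Mat KO, whereas WT 2 allowed up to 13.04. The libraries therefore lay in the order WT 2, WT 1, Mat KO, with no overlap of their counting intervals.

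The distance between the WT libraries was itself large for Malat1. WT 1 exceeded WT 2 by at least 5.36-fold, and the share of the Mat KO library was 12.6-fold that of WT 1 (10.6 to 14.9, counting error only). Against WT 2 the Mat KO library was at least 67.5-fold higher. The scale moved these values. As a share of nuclear protein-coding counts other than Lars2, the Mat KO library stood 20.1-fold above WT 1 and WT 1 at least 3.20-fold above WT 2, and as a share of all gene counts the Mat KO library stood 4.46-fold above WT 1. With 1 Mat KO library there is no spread to set this against, so no difference by genotype is shown.

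**Figure D2:**
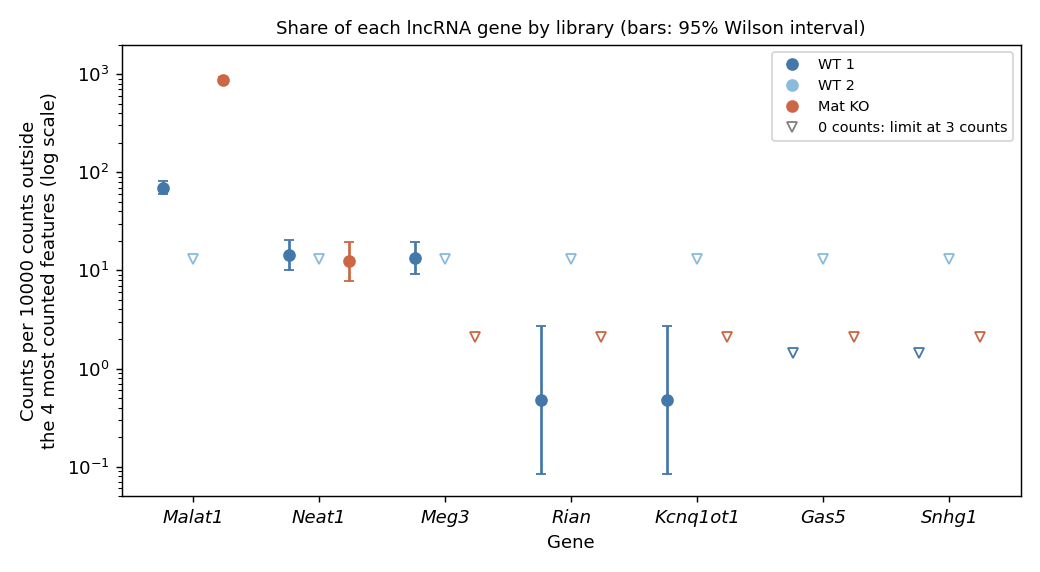
The y axis gives, on a log scale, the share per 10000 other counts of each gene, in each of the 3 libraries. Points carry 95% Wilson intervals, and open triangles mark 0 counts at the limit of 3 counts. Malat1 spans from at most 13.04 (WT 2) to 880.1 (Mat KO), Neat1 overlaps between WT 1 and the Mat KO library, and Gas5 and Snhg1 show limits only.

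By rank, Malat1 had rank 8 of 4345 counted genes outside the 4 features in WT 1 and rank 2 of 638 for Mat KO. Divided by exon length, its level was 10.0 per 10000 per kb (WT 1, rank 61) and 126 (Mat KO, rank 6). The gene ahead of it in the Mat KO library was A130071D04Rik (chromosome 1 from 138161820 to 138167683), a noncoding model that lies within the gene of the leukocyte phosphatase Ptprc, with 106, 752 and 3560 counts. This gene was high in WT 2 as well, at 3268 per 10000, where Malat1 had 0 counts. The lncRNA signals of WT 2 and the Mat KO library thus coincided in A130071D04Rik and not in Malat1.

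**Figure D3:**
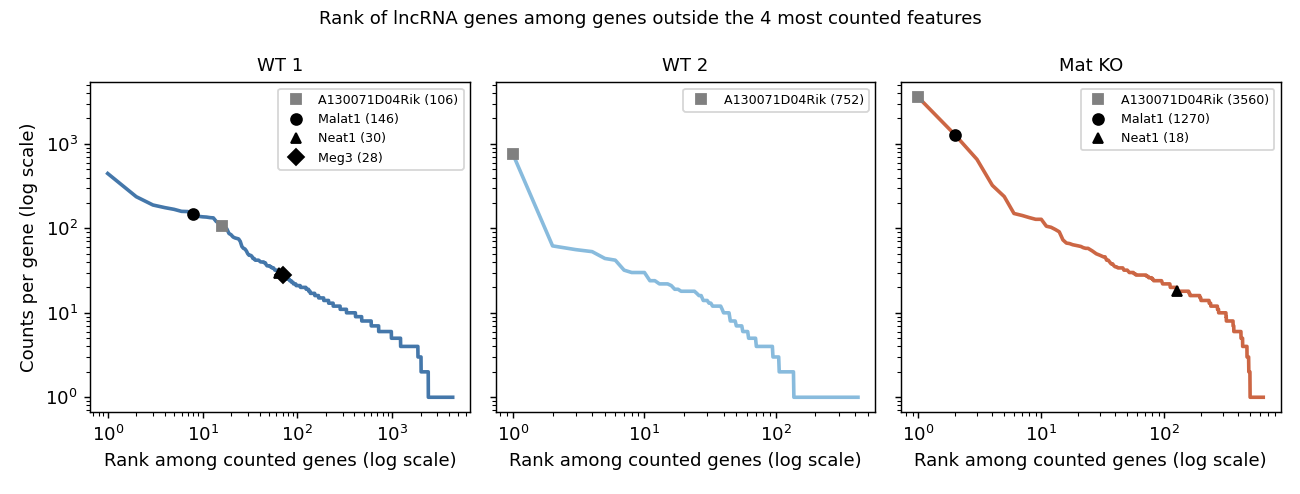
Each panel plots 1 library, with the rank of a gene among counted genes outside the 4 most counted features on the x axis and its counts on the y axis, both on log scales. Malat1 lies at 146 counts (WT 1) and at 1270 (Mat KO), directly below A130071D04Rik, and has no point in WT 2.

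Neat1, the scaffold of paraspeckles and the gene next to Malat1 on the chromosome, did not follow Malat1. Neat1 (ENSMUSG00000092274, chromosome 19 from 5824708 to 5845478, minus strand, 20771 exon bases) had 30, 0 and 18 counts. These are 14.4 per 10000 (10.1 to 20.5) for WT 1 and 12.5 (7.89 to 19.7) for Mat KO, and WT 2 allowed up to 13.04. The intervals overlap, and the ratio of the Mat KO library to WT 1 was 0.869 (0.485 to 1.56), or 1.39 (0.775 to 2.49) against nuclear protein-coding counts. Over all gene counts it was 0.308, so its direction depended on the scale. Neat1 had rank 64 in WT 1 and rank 128 for Mat KO. On the scale of other counts, the 0 of WT 2 was not informative, whereas over all gene counts WT 1 was at least 37.1-fold above WT 2.

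Malat1 and Neat1 therefore stood in different proportion in the libraries that held both. Per kb of exon, the level of Malat1 was 14.5 times that of Neat1 for WT 1 and 209.9 times for Mat KO. No interval was taken for these ratios. They use all 20771 exon bases of Neat1, whose counts are not split among its 4 transcripts. The Mat KO ratio rests on 18 Neat1 counts, a value that 31 genes share there. The exons of Neat1 share 1.85% of their length with exons of other genes and those of Malat1 7.72%, so overlapping annotation touches little of either. The genes with overlapping exons had 0 counts in all libraries. Reads on shared exon bases may have been set aside as ambiguous, so this does not show that none were lost. Of 15 genes that neighbour the pair, 6, 2 and 0 had counts, with summed counts of 9, 2 and 0. Map3k11, a kinase gene, led them with 4, 1 and 0 counts.

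Meg3, the maternally expressed lncRNA that gives the Gtl2 locus its name, was counted only in WT 1. Meg3 (ENSMUSG00000021268, chromosome 12 from 109541001 to 109571726, plus strand, 18089 exon bases) had 28, 0 and 0 counts. This is 13.4 per 10000 (9.27 to 19.4) for WT 1, against limits of 13.04 for WT 2 and 2.08 for Mat KO. At its observed share in WT 1, and with 0 set at 3 independent counts, Meg3 was at least 6.44-fold lower in the Mat KO library. Against nuclear protein-coding counts it was at least 4.03-fold lower. The most common count above 1 in the Mat KO library was 6, so these bounds may be too tight. The limit of WT 2 lies within the interval of WT 1, so WT 2 shows no difference on this scale, whereas over all gene counts WT 1 was at least 34.6-fold above it. A gene at 0 in both WT 2 and the Mat KO library does not tell the genotypes apart.

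Absence from the other libraries was common among genes of WT 1. Of the 4349 genes counted in WT 1, 94.6% were at 0 in WT 2, 93.3% in Mat KO and 89.0% in both. Many of these genes were near the floor: 1946 had 1 count and only 413 had at least 10, whereas Meg3 had 28. No share was taken among genes of like count, so these shares are no matched background for Meg3. Of the 5 members counted in WT 1, 3 were at 0 in both: Meg3, Rian and Kcnq1ot1. Meg3 and Neat1 had like shares in WT 1, at 0.741 and 0.691 per 10000 per kb, and of the pair only Neat1 was counted in the Mat KO library, where its 18 counts are a value that many genes share. Whether the 0 of Meg3 comes with the genotype or with the makeup of this library cannot be told apart.

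Rian and Kcnq1ot1 were at the edge of detection. Rian (ENSMUSG00000097451, chromosome 12 from 109603940 to 109661716), which lies downstream of Meg3 and holds 13 annotated snoRNA genes, had 1 count in WT 1 and 0 in the other libraries. Kcnq1ot1 (ENSMUSG00000101609, chromosome 7 from 143203458 to 143296549), which silences the neighbouring imprinted genes on the paternal chromosome, likewise had 1, 0 and 0 counts. A single count, 0.478 per 10000 (0.0844 to 2.71), lies under the 1.44 that a count of 0 allows, so neither library difference was detectable. Kcnq1ot1 runs antisense to Kcnq1, and no source used here gives the strand setting of the counting, so its count could come from either strand.

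The neighbours of these imprinted genes were thinly covered too. Of the 13 other matched genes of the Dlk1-Dio3 locus and its flanks, 5, 0 and 3 had counts. All of these lie in the flanks, where Dync1h1, a dynein motor gene, had 8, 0 and 10 counts and Yy1, a transcription factor gene, 1, 0 and 10. Of the 18 other genes of the Kcnq1 domain and its flanks, 4, 0 and 1 had counts, with Cd81 at 0, 0 and 14 and the growth factor gene Igf2 at 4, 0 and 0. The 9 other imprinted lncRNAs matched had 9 counts in WT 1, 5 on Snhg14 and 4 on H19, and 0 in the other libraries.

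Gas5 and Snhg1 had 0 counts in all 3 libraries. Gas5 (ENSMUSG00000053332, chromosome 1 from 161034422 to 161038539) holds 10 annotated snoRNA genes and Snhg1 (ENSMUSG00000108414, chromosome 19 from 8723475 to 8726443) holds 8. Exons of other genes overlap 17.8% and 20.9% of their exon length, where a read may have been set aside as ambiguous, and leave 82.2% and 79.1% free. Their shares were at most 1.44, 13.04 and 2.08 per 10000. The 1507 snoRNA genes in the tables had 0 counts as well.

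Other snoRNA hosts were read beside Gas5 and Snhg1. Of 17 other matched noncoding hosts, 3 had counts in WT 1 and 0 in the other libraries, led by Snhg11 with 15 counts, Snhg14 with 5 and Snhg20 with 1. By position, 54 lncRNA genes hold a snoRNA gene, and 6, 0 and 0 of them were counted, or 11.1%, 0% and 0%, beside 0.614%, 0.0806% and 0.342% of all lncRNA genes. Of 257 protein-coding genes that hold a snoRNA gene, 96, 23 and 25 were counted, which is 37.4%, 8.95% and 9.73%, against 19.5%, 1.77% and 2.69% of all protein-coding genes. Eef2, the translation elongation factor that moves the ribosome along, led these with 70, 18 and 6 counts, followed by Tpt1 with 48, 11 and 1 and the chaperone gene Hspa8 with 22, 1 and 28. No test was made of these shares, since genes of 1 library are not replicates.

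The GENCODE tag for genes that host small RNAs is carried by 6 of the 7 members, all but Kcnq1ot1. Since snoRNA hosts were among the genes the list was drawn from, this is no independent feature. Of the 208 lncRNA genes with this tag, 16, 0 and 4 were counted, or 7.69%, 0% and 1.92%. Of the 9722 without it, 45, 8 and 30 were counted, or 0.463%, 0.0823% and 0.309%. The tagged genes held 232, 0 and 1320 counts, of which Malat1 made up 146, 0 and 1270.

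Among lncRNAs at large, the members made up much of WT 1 and Malat1 alone much of the Mat KO library outside A130071D04Rik. Of the 9930 lncRNA genes in the tables, 61, 8 and 34 were counted, with 464, 827 and 5162 counts. Malat1 took 31.5% of the lncRNA counts of WT 1 (27.4 to 35.8), 0% of WT 2 (at most 0.363%) and 24.6% of Mat KO (23.4 to 25.8). Without A130071D04Rik these became 40.8% (35.8 to 45.9), 0% of 75 counts and 79.3% (77.2 to 81.2). Malat1 and Neat1 are among the 6 genes of the GENCODE long noncoding class counted in both WT 1 and the Mat KO library. The others are A130071D04Rik, Gm42418, 5031425E22Rik and Zswim6, with the class taken as annotated. The 6 genes are 9.84% of the lncRNA genes of WT 1, beside 6.74% for all genes of WT 1. They are 17.6% of the lncRNA genes of the Mat KO library, beside 45.6% for all its genes. The direction thus turns with the library taken as the base.

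**Figure D4:**
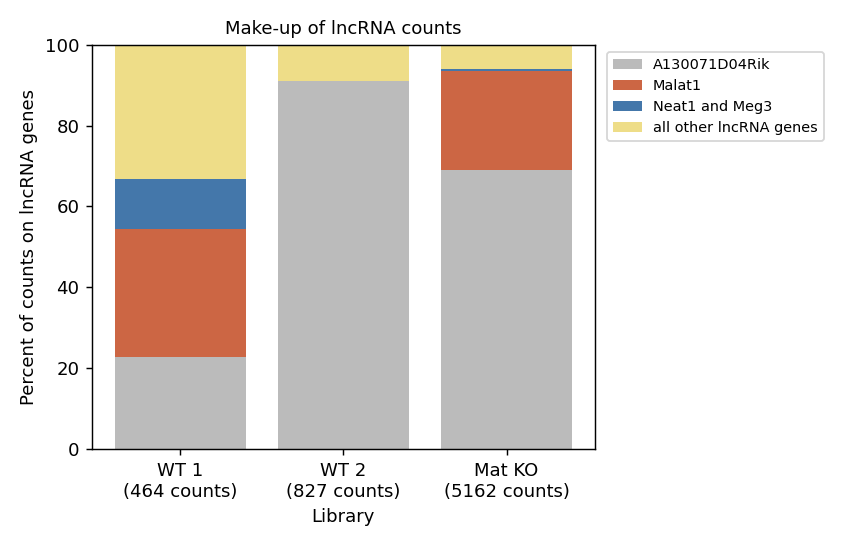
Bars give the percent of lncRNA counts in each library that fell on A130071D04Rik, on Malat1, on Neat1 and Meg3, and on all other lncRNA genes, with the total lncRNA counts under each bar. Malat1 takes 31.5%, 0% and 24.6%, and A130071D04Rik takes 90.9% in WT 2.

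The remaining lncRNAs were read as a sum. Without A130071D04Rik and Malat1, the class stood at 101 per 10000 (88.7 to 116), 326 (261 to 407) and 230.1 (207 to 256). WT 2 was highest on this scale and lowest over all gene counts, at 32.8, 3.13 and 26.4 per 10000, so the order of the libraries turned with the scale. Of 14 other nuclear lncRNAs matched, 3 had counts in WT 1 and 0 in the other libraries: Miat with 5, Tug1 with 2 and 2900097C17Rik, the mouse Norad gene, with 1.

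Proteins of the bodies that Malat1 and Neat1 reside in were read from gene lists. Of 31 nuclear speckle protein genes, 17, 3 and 5 were counted, with 80, 3 and 67 counts. The speckle scaffold gene Son had 0, 0 and 20 counts, the kinase genes Prpf4b and Clk1 0, 0 and 18 and 0, 1 and 16, and the speckle scaffold gene Srrm2 17, 0 and 0. The splicing factor gene Srsf5 was counted in WT 1 and for Mat KO alike, at 8, 0 and 8. Of 25 paraspeckle protein genes, 12, 5 and 2 were counted, with 59, 5 and 7 counts, led by Ewsr1 with 15, 1 and 0. Of 24 snoRNP and snoRNA maturation genes, 3, 3 and 1 were counted, with nucleolin (Ncl) at 3, 0 and 13. Of 17 nonsense-mediated decay genes 7, 1 and 1 were counted, with Upf2 at 5, 0 and 16. Of these lists, 8 genes entered the test across genes given below. That test called no gene of any kind, so it does not set these lists apart.

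The pattern of Malat1 over the 3 libraries was compared among the 60 genes with at least 50 counts, Malat1 included, as the distance between their log2(share + 1). Nearest was Anp32b, a histone chaperone gene, with 21, 0 and 656 counts at a distance of 2.84. Next came the mitochondrial gene mt-Co1 with 446, 0 and 128 counts, the peptidase gene Nrd1 with 7, 0 and 142, mt-Nd6 with 17, 0 and 63, and the nonmuscle myosin gene Myh9 with 14, 0 and 61. All of them share a count of 0 in WT 2 with Malat1. So did 94.6% of all genes counted in WT 1, and no share was taken among the 60. The distance also weighs level. Per 10000 other counts, mt-Co1 fell from 213.4 in WT 1 to 88.7 for Mat KO, whereas Malat1 rose from 69.8 to 880.1. The likeness rests on 3 libraries and is a description.

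In the fit across all genes, edgeR's quasi-likelihood test called 0 of 437 genes (0.0%) at an adjusted p under 0.05, with 0 at an unadjusted p under 0.05, and DESeq2 and limma-voom called 0 with 7 and 20 genes at that level. Of the 7 members, Malat1, Neat1 and Meg3 passed the filter on low counts, Meg3 through WT 1 alone. The fitted log2 fold change of Mat KO against WT was 2.61 for Malat1 (standard error 4.36), -1.08 for Neat1 (6.40) and -3.50 for Meg3 (4.48), beside a median of -0.27 over the 437 genes. Neat1 turned positive with other size factors, at 0.20, where that median was 0.75. By size alone, Malat1 was the member at least 2-fold above both WT libraries, with zeros set to 3 counts, as were 7.09% of the 437 genes. The counts chose the gene, so nothing is read from this.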

How the data were processed

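Polysomal RNA of 2 WT libraries and 1 Mat KO library was analysed, grouped by title and genotype labels. The labels give the Mat KO library no number. The deposited tables hold unnormalized read counts for Ensembl genes, which the authors made with Trimmomatic, HISAT2 2.1.0 and HTSeq 0.11.2 on GRCm38, per the submitters' processing notes. For annotation release and strand setting, nothing is given in the sources used here. The 5 HTSeq summary lines stayed out of all sums and fits. Gene-assigned reads were 15.1%, 11.8% and 9.99% of those recorded, and reads on several overlapping genes 33.5%, 74.3% and 66.1%. Symbols, lengths and classes came from GENCODE M21, which held 48349 identifiers. Sequences came from GENCODE and RefSeq (6 of 7 members had RefSeq starts). Genes were tested with edgeR 4.0.16 (R 4.3.3; TMM, filterByExpr with minimum count 10 and total 15, prior count 2, Benjamini-Hochberg), with DESeq2 1.42.0 and limma 3.58.1 as alternatives, and the script was tested on simulated counts. There is 1 residual degree of freedom, so p-values rest on the spread between WT libraries, which may be technical. Wilson intervals came from SciPy 1.17.1. The members, the 20 gene lists and the other-count scale were chosen with earlier results of these data known. Named genes were the members, up to 4 detected genes of each list, the 5 most counted lncRNAs of each library, and the 5 genes most like each member with at least 50 counts. Eef2, Tpt1, Hspa8, Srsf5, Gm42418, 5031425E22Rik and Zswim6 were named outside this rule, after their values were seen.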

Additional observations from a re-analysis of the deposited data

How the results depend on the processing

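The count of 0 called genes was the same with RLE size factors, total counts alone, library sizes without the 4 dominant features, a filter at a mean of 10 counts, no filter, DESeq2 and limma-voom. With library sizes without the 4 dominant features, 33 genes had an unadjusted p under 0.05. In the main edgeR fit the common dispersion was 3.88, with 1 residual degree of freedom. Such a fit can hardly call a gene, so the repeated 0 says little about whether genes differ. Without either WT library 1 library stands against 1, so no test could be made. No paired analysis was possible because the labels number only the WT libraries. The Malat1 ratio of the Mat KO library to WT 1 was 4.46 over all gene counts, 20.1 over nuclear protein-coding counts and 16.6 without A130071D04Rik among the other counts, and was at least 67.5 with WT 1 left out. For the 7 members summed, 9.06, these were 3.21, 14.5, 12.0 and at least 68.5. For the lncRNA class, 16.1, they were 5.70, 25.8 and 21.3, and with WT 1 left out the ratio was 0.995. The share of counts outside mitochondrial, Lars2 and rRNA genes left all 3 within their intervals. The log2 fold change of Neat1 turned to 0.20 with RLE size factors, 0.26 in DESeq2, 0.75 in limma-voom and 2.69 without WT 1, and was -2.06 without WT 2. Without WT 1 that of Malat1 was 8.60, and without WT 2 1.62. That of Meg3 ran from -6.25 in DESeq2 to -2.66 with RLE size factors. Its sign was set by its counts, which are in WT 1 alone, and it has no value without WT 1. The cause of these shifts was not tested. With 2301 other counts, WT 2 allows up to 13.04 per 10000 for a gene at 0.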

Other observations

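Of 11 structured noncoding RNA genes, 4, 2 and 3 were counted in the libraries. The signal recognition particle RNA genes Rn7s1 and Rn7s2, whose RNA guides ribosomes to the endoplasmic reticulum, had 117, 12 and 46 and 159, 19 and 67 counts (order WT 1, WT 2, Mat KO). Per 10000 other counts, Rn7s2 lay at 76.1 (65.2 to 88.8), 82.6 (52.9 to 129) and 46.4 (36.6 to 58.9). Over all gene counts, WT 1 was 31.0-fold above WT 2 for Rn7s2 and 36.2-fold for Rn7s1. Their sequences are nearly the same, so how reads were divided between them is uncertain. Rpph1, the RNA of RNase P, which cuts the 3' end of Malat1, had 20, 0 and 8 counts, and Rmrp 20, 0 and 0. With its 0 set at 3 independent counts, Rmrp was at least 4.60-fold lower for Mat KO than for WT 1 per other count.

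Among lncRNAs, A130071D04Rik and Malat1 held most counts of the Mat KO library, and both were counted in WT 1. Of the 8 lncRNA genes of WT 2, 4 (50%) were counted there alone, beside 37.2% of all its genes. So few genes cannot set these shares apart. Of the 34 lncRNA genes of the Mat KO library, 26 (76.5%) were counted there alone, beside 49.7% of all its genes. After A130071D04Rik, WT 2 was led by Gm26760 with 24 counts, 2610035D17Rik with 14, and Gm26861 and Gm37626 with 12 each, all at 0 in the other libraries. After A130071D04Rik and Malat1, the Mat KO library was led by Gm44175 with 32 counts, Carmn with 28 and Gm44230 with 26, all at 0 in both WT libraries. WT 1 followed its members with Gm26917, at 23, 0 and 0 counts, which lies beside CT010467.1 on chromosome 17. Of 93 lncRNA genes counted in any library, 2 (2.15%) were counted in all 3, beside 1.05% of all genes counted in any: A130071D04Rik and Gm42418, the latter with 4 counts in each.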
